A study of Rattus norvegicus with 18 samples.

Results

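Calca and Cd55 are a pair of genes used as nociceptor markers, and their levels were followed in the L5 dorsal root ganglia (DRG) of rats with and without a cut spinal nerve. They were taken by their Ensembl identifiers, ENSRNOG00000011130 for Calca and ENSRNOG00000003927 for Cd55, and are 2 of the 26172 genes listed at each read depth. SNT samples came from male Wistar rats in which the L5 spinal nerve had been transected 7 days earlier, and naive samples came from rats of the same kind without that injury. Each of the 3 SNT and 3 naive libraries was made from poly(A) RNA of the L5 DRG of 4 pooled animals. Differences between single rats are thus reduced, but not removed, before sequencing. No sham-operated group was analysed here, and the nerve cut and the surgery around it cannot be told apart. Every library was sequenced in 3 runs, named by their depth of about 17 M, 25 M or 50 M reads (M for a count of 1000000), which are technical repeats of the same 6 libraries, and SNT was compared with naive within each depth with n = 3 pools of different animals per group.

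Calca encodes the precursor of calcitonin gene-related peptide (CGRP), a vasodilator neuropeptide that peptidergic nociceptors store in dense-core vesicles and release in the skin and in the dorsal horn. The same gene yields calcitonin in the thyroid, and the choice between the products is made by alternative splicing, which a count of reads over all exons of the gene does not resolve. Cd55 encodes decay-accelerating factor, a protein held on the cell surface by a glycosylphosphatidylinositol (GPI) anchor, which takes apart the convertases of the complement cascade. In the DRG of rodents it has been described on small neurons, among them the nonpeptidergic nociceptors. In whole ganglia, fewer cells of a type and less RNA per cell cannot be told apart.

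The stretches before the listed transcription starts of the members are shown because both genes fell together and both hold the letters TGACG, the core of the cyclic AMP response element, set here in capitals. The sequences are from RefSeq on the rat build GRCr8, both on the minus strand, and are given 5′ to 3′. The Calca stretch, chr1:178317589-178317779, holds the 191 bases upstream of the outermost annotated end of the gene, and the 59 bases between it and the listed start were left out. The Cd55 stretch, chr13:44438102-44438351, holds the 250 bases before its listed start, and the annotated gene reaches further upstream.
Calca: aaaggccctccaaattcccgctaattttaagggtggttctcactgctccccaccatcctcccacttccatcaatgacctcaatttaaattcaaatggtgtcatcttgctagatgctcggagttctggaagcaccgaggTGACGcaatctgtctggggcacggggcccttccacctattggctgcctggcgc
Cd55: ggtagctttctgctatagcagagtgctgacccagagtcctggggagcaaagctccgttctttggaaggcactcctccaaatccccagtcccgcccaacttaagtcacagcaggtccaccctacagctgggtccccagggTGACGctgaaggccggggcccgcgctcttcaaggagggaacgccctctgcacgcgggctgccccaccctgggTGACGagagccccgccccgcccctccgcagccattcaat
The match in Calca began 112 bases before the listed start, and those in Cd55 began 111 and 39 bases before it. TGACG on either strand was found in the 250 bases before the start of 18.2% of 33469 rat promoters. The complete element TGACGTCA was in neither promoter and in 1.59% of all, and the AP-1 site TGANTCA was in neither and in 6.34% of all. The E-box CANNTG was in both, as in 65.5% of all. The motifs were chosen after the sequences had been seen, and a match of letters is not a binding site.

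One SNT library stood apart from the others of its group. Among the 802 genes that were at least 4 times lower in the mean of SNT replicates 2 and 3 than in naive libraries at 50 M, the decrease was smaller in SNT replicate 1 for 788 genes (98.3%). The median decrease in SNT replicate 1 was 41.0% of that in the other two on the log2 scale. The choice of these genes favours a smaller decrease in the library left out, but with SNT replicate 2 or 3 left out in the same way only 10.1% of 357 genes and 19.2% of 449 genes had a smaller decrease in it. For the 823 genes at least 4 times higher in SNT replicates 2 and 3 the median change in SNT replicate 1 was 70.3% of theirs. The levels, ratios and log2 fold changes of the members are therefore also given without this library. The runs held 4968448 to 6154543 reads on exons at 17 M, 8319112 to 9951906 at 25 M and 15000789 to 19031166 at 50 M.

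Calca was lower in every SNT library than in any naive library. At 50 M its normalized count, the read count divided by the size factor of the run, was 16227 in naive replicate 1, 17034 in naive replicate 2 and 15969 in naive replicate 3. In the SNT libraries it was 9574 in replicate 1, 1786 in replicate 2 and 1886 in replicate 3. The naive libraries lay within a few percent of each other, whereas SNT replicate 1 kept 58.3% of the naive mean and SNT replicates 2 and 3 kept 10.9% and 11.5%. The groups did not overlap. The mean fell from 16410.3 ± 556 (SD, n = 3) in naive to 4415 ± 4468 (SD, n = 3) in SNT libraries, a ratio of 0.269. Without SNT replicate 1 the ratio was 0.112.

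The same pattern was found in the runs of lower depth. At 25 M the naive normalized counts of Calca were 8566, 9033 and 8277, and the SNT counts were 5019, 955 and 978. At 17 M they were 5368, 5474 and 5159 in naive and 3072, 584 and 660 in SNT libraries. At each depth SNT replicate 1 lay between the naive libraries and the other SNT libraries. The share of the naive mean kept in SNT replicate 1 was 57.6% at 17 M and 58.2% at 25 M.

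Cd55 fell by a similar factor. At 50 M its normalized count was 5393 in naive replicate 1, 6450 in naive replicate 2 and 4639 in naive replicate 3. In SNT libraries it was 2735 in replicate 1, 538 in replicate 2 and 577 in replicate 3. The groups did not overlap, and SNT replicate 1 again stood between them, at 49.8% of the naive mean against 9.79% and 10.5% in SNT replicates 2 and 3. The naive libraries were spread more widely for Cd55, with a coefficient of variation of 16.6%, than for Calca, with 3.39%. The mean was 5494 ± 909 (SD, n = 3) in naive and 1283 ± 1258 (SD, n = 3) in SNT libraries, a ratio of 0.234. Leaving out SNT replicate 1 gave a ratio of 0.101.

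At 25 M the naive normalized counts of Cd55 were 2747, 3493 and 2428, and the SNT counts were 1352, 316 and 296. At 17 M they were 1712, 2157 and 1418 in naive and 831, 200 and 218 in SNT libraries. The SNT libraries stayed below all naive libraries at both depths. For both genes the two-sided exact permutation test over libraries gave p = 0.1 at each depth, which is the smallest p that 3 against 3 libraries can give.

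**Figure D1:**
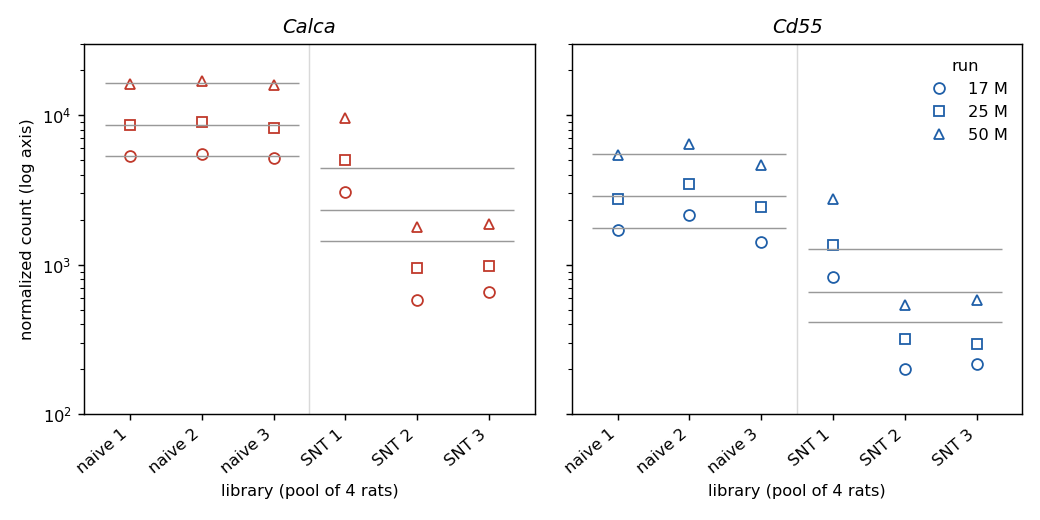
Normalized counts of Calca (left) and Cd55 (right) on a log axis in the 3 naive and 3 SNT libraries, with a symbol for each of the 3 runs and grey lines at the mean of each group and run. At 50 M Calca is between 15969 and 17034 in naive libraries, at 9574 in SNT replicate 1 and at 1786 and 1886 in SNT replicates 2 and 3, and Cd55 follows the same steps.

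Across all genes the decrease of both members passed the FDR threshold of 0.1 at each depth in limma, a test that shares the spread between libraries over genes. By that rule 26.4% of the genes tested at 17 M were called lower in SNT. The share was 28.3% at 25 M and 29.4% at 50 M, so a call by itself sets neither gene apart. A decrease without overlap between the groups, shown by both members, was found in 29.0% of genes at 17 M. At 25 M it was found in 30.6%, and at 50 M in 31.3%. On the recovered reads both members were also called lower at 50 M by edgeR and by DESeq2, which called 28.0% and 27.3% of genes lower. The log2 fold change (FC) of Calca at 50 M was -2.37 (SE 0.613, limma adjusted p = 0.0182), and that of Cd55 was -2.52 (SE 0.598, limma adjusted p = 0.0136). At 25 M the log2 FC was -2.36 for Calca (SE 0.593, limma adjusted p = 0.0156) and -2.51 for Cd55 (SE 0.546, limma adjusted p = 0.00942). At 17 M it was -2.33 for Calca (SE 0.560, limma adjusted p = 0.0128) and -2.39 for Cd55 (SE 0.499, limma adjusted p = 0.00779).

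Few genes fell further. Of 17930 genes tested at 50 M, 316 (1.76%) had a lower log2 FC than Calca and 255 (1.42%) had a lower one than Cd55. These shares were 1.37% and 1.22% without SNT replicate 1. They were larger in the count-based tests, 3.80% and 2.86% in edgeR and 3.96% and 3.07% in DESeq2. Without SNT replicate 1 the log2 FC at 50 M was -3.16 for Calca (limma adjusted p = 8.6e-07) and -3.29 for Cd55 (limma adjusted p = 4.99e-06). That library was singled out by these same data, with both members among the genes used. Its removal took the SE of Calca from 0.613 to 0.0722, so these p-values are not further support for the decrease. With libraries scaled to equal totals the median log2 FC of all genes rose by 0.152 at 50 M, and the log2 FC was -2.20 for Calca and -2.36 for Cd55. That scaling also moved the share of calls that were decreases from 50.2% to 37.5%.

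The decrease in SNT replicate 1 was set against that in the rest of its group for the members and for other strongly decreased genes. The log2 decrease in this library was 24.6% of that in SNT replicates 2 and 3 for Calca and 30.2% for Cd55 at 50 M. Among the 802 genes described above, of which both are members, 63 had a smaller share than Calca and 135 had a smaller share than Cd55. The middle 50% of these genes lay between 33.8% and 48.0%. The share of Calca was 24.7% at 25 M and 25.7% at 17 M, below the middle 50% of genes at each depth. That of Cd55 was 33.5% at 25 M, at the lower edge of the middle 50% (33.5% to 49.2%), and 34.8% at 17 M, within it (33.3% to 49.4%).

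Differences between libraries exceeded differences between runs of 1 library, by most in the SNT group. Expressed as reads per 1000000 counted reads, Calca in SNT replicate 1 was 566, 565 and 567 in the runs of rising depth. Cd55 in SNT replicate 3, the library with the widest spread of runs, was 40.9, 34.1 and 34.95 reads per 1000000. In 12 chi-square tests, 1 for each gene and library, over the 3 runs, none passed an adjusted p of 0.05 and none had an unadjusted p under 0.05, and the smallest unadjusted p was 0.0706. The SD of log2 reads per 1000000 among SNT libraries was 1.34 for Calca and 1.24 for Cd55, against 0.0436 and 0.106 among runs of the same library. Among naive libraries the SD was 0.0366 for Calca, against 0.0155 among runs, and 0.239 for Cd55, against 0.0318 among runs. For Cd55, the higher level in naive replicate 2 and the lower level in naive replicate 3 therefore returned in each run.

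**Figure D2:**
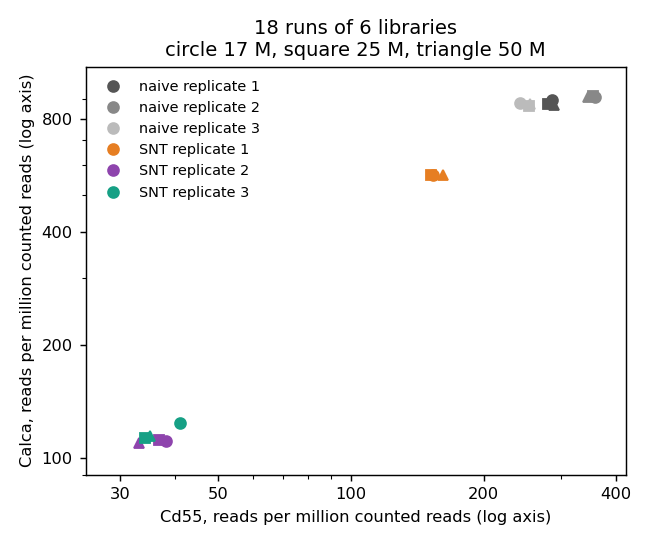
Reads per 1000000 counted reads of Calca (vertical log axis) against Cd55 (horizontal log axis) in the 18 runs, coloured by library and with a symbol for each depth. The 3 runs of a library lie close together, SNT replicate 1 lies near 566 for Calca in each run, and SNT replicates 2 and 3 lie between 110 and 124.

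By normalized count, Calca and Cd55 ranked the libraries in the same order at 50 M and at 17 M. For both, the order from high to low was naive replicate 2, naive replicate 1, naive replicate 3, SNT replicate 1, SNT replicate 3 and SNT replicate 2. At 25 M the order was the same for Calca, while for Cd55 SNT replicates 2 and 3 changed places. The 6 libraries form groups that stand far apart, so no correlation was computed over them. Within the naive group the log2 deviations from the naive mean at 50 M were -0.02, 0.05 and -0.04 for Calca and -0.01, 0.24 and -0.23 for Cd55. At 50 M the direction was the same in each library, and the deviation in replicates 2 and 3 was larger for Cd55. At 17 M naive replicate 1 deviated in opposite directions, by 0.0097 for Calca and by -0.0205 for Cd55. For Calca its deviation at 50 M, -0.0156, was about the size of the SD among runs of a naive library, 0.0155.

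The ratio of the members to each other changed little beside the change of each. At 50 M the count of Calca was 3.01, 2.64 and 3.44 times that of Cd55 in naive libraries and 3.50, 3.32 and 3.27 times in SNT libraries. These ratios compare libraries and are not relative abundances of the transcripts, since the counts are not scaled to gene length. On the log2 scale the ratio was 1.59 ± 0.19 (SD, n = 3) in naive and 1.75 ± 0.05 (SD, n = 3) in SNT libraries, a difference of 0.157 (two-sided exact permutation p = 0.3). At 25 M the difference was 0.141 (exact permutation p = 0.5), and at 17 M it was 0.0557 (exact permutation p = 0.9). At each depth the difference was smaller than the SD of the naive libraries. The difference at 50 M was 0.128 without SNT replicate 1 (exact permutation p = 0.6). Without naive replicate 2, the library with the lowest ratio, it was 0.062, and without naive replicate 3 it was 0.253. At 17 M its sign was turned by leaving out naive replicate 2 or SNT replicate 1.

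Most general neuron markers that could be matched were also called lower in SNT, with log2 FC above those of the members in the limma fit. Of 19 markers of sensory neurons listed, 14 could be matched to an identifier, and all of them had reads in every library. At 50 M, 9 of the 14 were called lower, 2 higher and 3 neither way, where 29.4% of all genes were called lower and 29.2% higher. The median log2 FC was -0.67 against 0.01 over all genes tested. Without SNT replicate 1, 10 were called lower and 2 higher, where 32.4% and 32.1% of all genes were. With equal totals 8 were called lower and 2 higher, where 22.1% and 36.8% of all genes were. The lowest was Snap25, a SNARE protein of synaptic vesicle fusion, at -2.15 (SE 0.407, limma adjusted p = 0.00692), followed by Nefh, the heavy neurofilament of large myelinated neurons, at -2.02 (SE 0.408, limma adjusted p = 0.00817). Nsg1, a neuronal endosomal protein, rose to 2.27 times the naive mean (limma adjusted p = 0.00143). In the limma fit none of the 14 had a log2 FC below that of Calca or Cd55 at any depth, nor at 50 M without SNT replicate 1. The order of Calca and Snap25 turned with the measure, since the ratio of SNT to naive means at 50 M was 0.258 for Snap25 and 0.269 for Calca. The log2 FC of Snap25 was also the lower one in edgeR (-1.94 against -1.88) and in DESeq2 (-1.96 against -1.89). That of Cd55 was lower than all 14 in both.

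The members were also set against the neuron markers in each library. The log2 change of the median neuron marker from the naive mean was -0.35 in SNT replicate 1, -0.90 in replicate 2 and -0.67 in replicate 3 at 50 M. The difference of Calca from that median was -0.42 in SNT replicate 1, -2.30 in replicate 2 and -2.45 in replicate 3. For Cd55 the difference was -0.64, -2.43 and -2.56. In naive libraries the difference lay between -0.06 and 0.07 for Calca and between -0.12 and 0.13 for Cd55. The members lay below the neuron median in each SNT library, by least in SNT replicate 1. In that library Snap25 (-1.14) and Nefh (-1.09) had fallen further than Calca (-0.78) and Cd55 (-0.99).

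**Figure D3:**
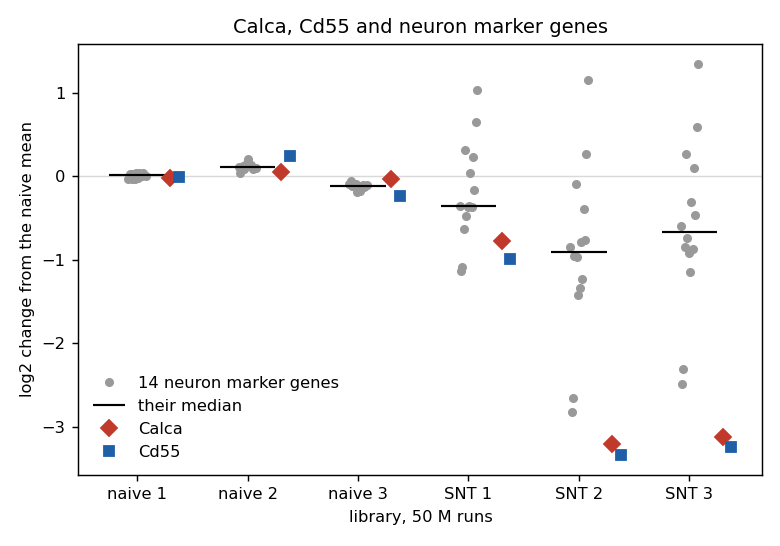
Log2 change from the naive mean in each library at 50 M for 14 neuron marker genes (grey points, with their median as a black line), Calca (red diamonds) and Cd55 (blue squares). In SNT replicates 2 and 3 both members lie below -3.1 and under every grey point, and in SNT replicate 1 they lie at -0.78 and -0.99, below the median of -0.35.

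Markers of other cells were read beside the shares of all genes called at 50 M, 29.4% lower and 29.2% higher, which were 32.4% and 32.1% without SNT replicate 1. Of 9 matched markers of macrophages and other myeloid cells, 7 rose, 0 fell and 2 were not called at 50 M, and without SNT replicate 1 all 9 rose. Their summed normalized count was 18485 to 18789 in naive libraries, 33148 in SNT replicate 1, 62390 in replicate 2 and 40767 in replicate 3. The order of the SNT libraries in this sum was the inverse of that in Calca and Cd55. Of 5 matched markers of Schwann and satellite glial cells, 2 rose (Sox10 and Erbb3), 0 fell and 3 were not called, and their sum ranged from 129696 to 230080 in naive and from 140838 to 178112 in SNT libraries. Within the naive group the glial sum was lowest in replicate 2 and highest in replicate 3, the inverse of the order of Calca and Cd55. No matched myeloid or glial marker was at 0 in any library. The part of these cells in the levels of the members was not tested.

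The other nociceptor genes that could be matched changed unevenly. The list held 25 genes besides the members, of which 8 could be matched, and at 50 M 5 of the 8 fell, 1 rose and 2 were not called, with a median log2 FC of -0.52 against 0.01 over all genes. Over all genes 29.4% were called lower and 29.2% higher. Without SNT replicate 1, 6 fell and 1 rose, where 32.4% and 32.1% of all genes did. Htr3b, a subunit of the serotonin-gated ion channel, fell most, from 2346, 2662 and 2201 in naive libraries to 644, 42.4 and 41.5 in SNT libraries, with a log2 FC of -4.50 (SE 1.00, limma adjusted p = 0.0109). It shared the pattern of the members, with SNT replicate 1 between the groups, but lay lower than Calca in all SNT libraries relative to naive. Scn9a, the voltage-gated sodium channel Nav1.7, went from 13118 ± 1112 to 5556 ± 2432 (SD, n = 3), a log2 FC of -1.32 (limma adjusted p = 0.00971).

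Smaller decreases were found for the receptor tyrosine kinase gene Ret, which marks nonpeptidergic neurons (log2 FC -0.66, limma adjusted p = 0.0274), and for Asic3, an acid-sensing channel (log2 FC -0.63, limma adjusted p = 0.0138). Runx1, a transcription factor that directs nonpeptidergic fate, had a log2 FC of -0.41 (limma adjusted p = 0.0295), and with equal totals its log2 FC was -0.25 and was not called. Its decrease was called at 25 M (limma adjusted p = 0.052) but not at 17 M (limma adjusted p = 0.323). Scn3b, an auxiliary subunit of sodium channels, rose with a log2 FC of 0.82 (limma adjusted p = 0.00458). The intermediate filament gene Prph had a log2 FC of -0.28 (limma adjusted p = 0.203), which became -0.40 and was called without SNT replicate 1. The prostaglandin receptor gene Ptger3 had a log2 FC of -0.05 (limma adjusted p = 0.844) and a positive one with equal totals. Htr3b alone of the 8 had a lower log2 FC than the members. The 17 listed nociceptor genes without a match have no value here, so this rank does not extend to them. The paper reports decreases for some of these genes, which were not set beside the members here.

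Few genes for the making and breakdown of CGRP and other neuropeptides could be matched, 4 of 17, and these did not move together. Pcsk2, a prohormone convertase that cuts neuropeptide precursors, fell from 2175 ± 272 to 752 ± 352 (SD, n = 3) at 50 M, with a log2 FC of -1.62 (SE 0.305, limma adjusted p = 0.00674). Its values in SNT libraries were 1148, 474 and 635, so SNT replicate 1 was again the highest. Nln, neurolysin, a peptidase that degrades neuropeptides, rose in every SNT library, from 482 ± 22.1 to 890 ± 74.9 (SD, n = 3), with a log2 FC of 0.88 (limma adjusted p = 0.00198). Ece1, an endopeptidase that cleaves CGRP in endosomes, had a log2 FC of 0.15 (limma adjusted p = 0.171), which became 0.31 and was called with equal totals. Ece2, a related peptidase, had a log2 FC of -0.41 (limma adjusted p = 0.0513), a call that was lost with equal totals (-0.25), without naive replicate 2 (-0.33), without SNT replicate 2 (-0.27) and without SNT replicate 3 (-0.44). The median of the 4 was -0.13.

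RNA-binding proteins that have been tied to the calcitonin or CGRP choice were called about as often as genes at large. Of 13 listed, 7 were matched, and at 50 M 2 rose, 2 fell and 3 were not called, with a median log2 FC of 0.13, where 29.2% of all genes rose and 29.4% fell. Tia1, which promotes the use of weak splice sites, rose from 207 ± 14.3 to 451 ± 59.5 (SD, n = 3), with a log2 FC of 1.11 (limma adjusted p = 0.00236). Elavl1, the ubiquitous Hu protein, rose with a log2 FC of 0.69 (limma adjusted p = 0.00871). Ptbp2, the neuronal polypyrimidine tract binding protein, fell with a log2 FC of -0.46 (limma adjusted p = 0.00642).

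The remaining members of that list were less firm. Rbfox2 had a log2 FC of -0.35 (limma adjusted p = 0.0814). Its call was lost with equal totals (-0.19), in both count-based tests, and without naive replicate 1 (-0.36), naive replicate 2 (-0.30), naive replicate 3 (-0.39), SNT replicate 2 (-0.21) or SNT replicate 3 (-0.35). Srsf3 had a log2 FC of 0.13 (limma adjusted p = 0.308). Tra2b had a log2 FC of 0.49 (limma adjusted p = 0.129), and the neuronal Hu gene Elavl3 had one of -0.35 (limma adjusted p = 0.193). Without SNT replicate 1 both were called, with log2 FC of 0.73 and -0.55. With equal totals Srsf3 and Tra2b were called higher, at 0.29 and 0.65. Which exons of Calca were used was not analysed here.

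The other regulators of complement that could be matched were 4 of 10. At 50 M 1 rose, 1 fell and 2 were not called, where 29.2% of all genes rose and 29.4% fell. In DESeq2 or without SNT replicate 1, 2 of the 4 fell, where 27.3% and 32.4% of all genes fell. Susd4, a membrane protein with sushi domains like those of Cd55 that inhibits complement, fell from 4697, 5081 and 4195 in naive libraries to 2025, 646 and 798 in SNT libraries. Its log2 FC was -2.19 (SE 0.397, limma adjusted p = 0.00623), and its SNT replicate 1 lay between the groups as for Cd55. Cr1l, the rodent Crry gene, a membrane regulator that acts on the same convertases as Cd55, rose from 571 ± 24.3 to 829 ± 120 (SD, n = 3), with a log2 FC of 0.53 (limma adjusted p = 0.011). The SNT values of Cr1l were 699, 933 and 856, all above the naive libraries.

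Cd46, a membrane cofactor for complement cleavage, had a log2 FC of 0.25 (limma adjusted p = 0.248), and it was called with equal totals (0.41). Clu, clusterin, a secreted chaperone that binds the terminal complex, had a log2 FC of -0.30 (limma adjusted p = 0.111), and without SNT replicate 1 it was called at -0.36. Of 16 complement components and receptors listed, the proteases Masp1 and Masp2 of the lectin pathway were the 2 matched. The other 14 have no value here, so these 2 do not show how complement components changed as a group. Masp1 had a log2 FC of -0.10 (limma adjusted p = 0.407), which was positive with equal totals. Masp2 had a log2 FC of 0.24 (limma adjusted p = 0.199), and it was called with equal totals (0.40).

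The enzymes that build the GPI anchor of CD55 were represented by 2 of 10 genes, and neither was called lower. Piga, the catalytic subunit of the first step, had a log2 FC of 0.59 (limma adjusted p = 0.0853) from a naive mean of 44.8 normalized counts. The call was lost without naive replicate 1 (0.38), naive replicate 2 (0.63), SNT replicate 2 (0.51) or SNT replicate 3 (0.57). Piga was called at 25 M (limma adjusted p = 0.0214) but not at 17 M (limma adjusted p = 0.232). Pigv, a mannosyltransferase, had a log2 FC of -0.02 (limma adjusted p = 0.862), which was positive with equal totals.

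**Figure D4:**
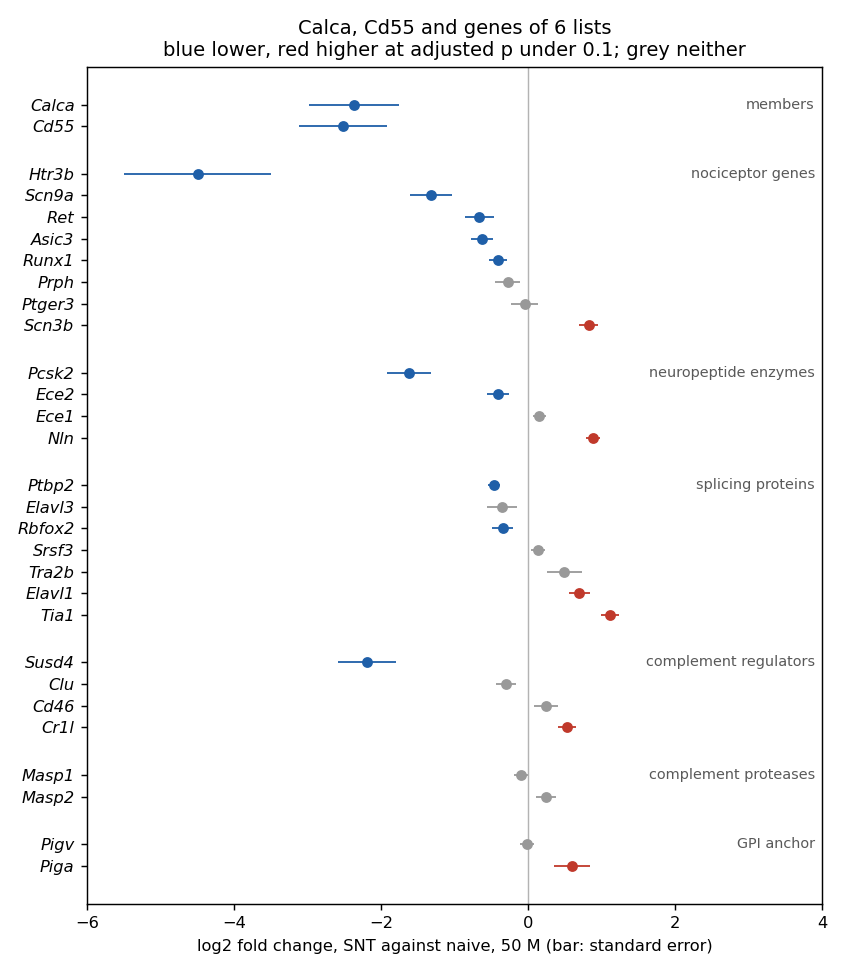
Log2 fold change of SNT against naive libraries at 50 M (points) with its standard error (bars) for Calca, Cd55 and the matched genes of 6 lists, with blue for lower, red for higher and grey for not called at a limma adjusted p under 0.1. Calca at -2.37 and Cd55 at -2.52 lie below every matched gene shown but Htr3b at -4.50, and Susd4 at -2.19 is the nearest matched complement regulator.

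The genes with the most similar pattern over the 6 libraries were looked for among 1981 genes that had a symbol and at least 20 normalized counts on average. Likeness was measured at 50 M as the root mean square difference of the log2 change from the naive mean, over 6 libraries. The nearest to Calca was Cd55 (0.159), followed by Dgkh (0.168), Frmpd1 (0.217), Acpp (0.223) and Dok4 (0.249). The nearest to Cd55 were Frmpd1 (0.104), Acpp (0.143), Dgkh (0.144), Calca (0.159) and Scn1a (0.176). The median over the candidates was 1.86 for Calca and 1.95 for Cd55. Among all 14088 genes above the same level, with or without a symbol, Cd55 was the 5th nearest to Calca, and Calca was the 23rd nearest to Cd55.

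Acpp encodes prostatic acid phosphatase, the enzyme behind a classical histochemical stain of nonpeptidergic nociceptors. Its normalized counts at 50 M were 1058, 1237 and 868 in naive and 483, 125 and 98.2 in SNT libraries. Dgkh, diacylglycerol kinase eta, which removes the second messenger diacylglycerol, had 1886, 2227 and 1487 in naive and 995, 197 and 239.7 in SNT libraries. For both, naive replicate 2 was the highest library and SNT replicate 1 the highest of its group, as for the members. The choice of these genes by likeness over the same libraries favours such a shared order.

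Frmpd1, a scaffold protein with FERM and PDZ domains, had a ratio of SNT to naive means of 0.2099. Dok4, an adaptor protein of receptor tyrosine kinases, had a ratio of 0.227, and Scn1a, the sodium channel Nav1.1, had a ratio of 0.205. Their log2 FC was -2.64, -2.36 and -2.64. In SNT replicate 1 the log2 change of the 5 neighbours ran from -0.89 for Dgkh to -1.27 for Dok4 and Scn1a, and in the other SNT libraries from -2.88 to -3.58. Calca, at -0.78, had stayed closer to naive in SNT replicate 1 than any of them. In the 25 M table all 5 neighbours of Calca and 4 of the 5 of Cd55 were again among the nearest 5, and at 17 M this held for 3 of 5 for each gene.

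**Figure D5:**
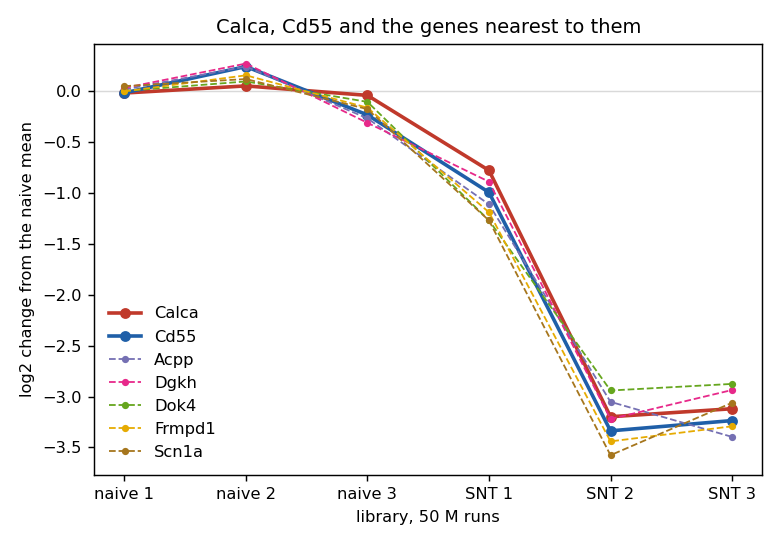
Log2 change from the naive mean in each library at 50 M for Calca and Cd55 (solid lines) and the 5 genes with a symbol that were nearest to either (dashed lines). All 7 lines stay near 0 in naive libraries, lie between -0.78 and -1.27 in SNT replicate 1 and lie below -2.8 in SNT replicates 2 and 3.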

How the data were processed

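The authors made libraries from poly(A) RNA with a kit that does not mark strand, aligned 34-base reads to the rat genome Rn5 with Bowtie, allowing 1 mismatch, discarded reads that mapped to several places, and counted exonic reads per Ensembl gene. Reads on stretches that Calca shares with a near-identical paralog such as Calcb would be lost, and antisense reads cannot be told apart. The deposited signal values are normalized counts, which the authors obtained by dividing the counts of each run by its DESeq size factor, in a table per depth. All values were whole multiples of 1 step per run (100% within 1e-06 of a read), which gave back the reads.

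SNT and naive libraries of a depth entered a limma fit (version 3.58.1, R 4.3.3) of log2(normalized count + 1) with a trended variance prior and a two-sided test, for genes with reads in at least 3 of 6 libraries, with Benjamini-Hochberg adjustment over all genes at that depth and an FDR of 0.1. Fold changes on this scale are means of logs, so they differ from ratios of means. The fit was also run on simulated counts in which 200 genes were changed and the spread of a gene was alike in both groups. In these data 10497 genes were called at 50 M and 1 SNT library stood apart, so that run does not vouch for the calls here. Alternatives were 2 other pseudocounts (0.5 and 5), filters set to none or to 10 normalized counts on average, an untrended prior, libraries scaled to equal totals, a stricter FDR (0.05), blocking on the replicate number, summing the runs, leaving out each library, and edgeR 4.0.16 and DESeq2 1.42.0 on the recovered reads. List counts and ranks under some of these, and the selections that leave out SNT replicates 2 and 3, were added after seeing the data. Intronic reads and the exon arrays were not analysed here.

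The members and the gene lists were chosen with earlier results of these data known. The genes named are the members, all matched genes of lists with 10 or fewer matched genes, and the 5 genes nearest to each member; the neuron, glial, myeloid, T or NK cell, skeletal muscle and red blood cell lists served as markers, of which only examples are named. Symbols came from a table supplied with the paper that pairs 1986 identifiers with symbols, and 57 of the 148 listed symbols were matched. Some other genes of these lists are not reported here. Sequences came from RefSeq (GRCr8), and files and sequences have different builds. Counting error is small at these depths, and the number of libraries limits the precision.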

Additional observations from a re-analysis of the deposited data

How the results depend on the processing

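Calca and Cd55 stayed lower in SNT with an adjusted p under 0.1 at each depth under every alternative listed. At 50 M the log2 FC was -1.88 for Calca and -2.08 for Cd55 in edgeR (adjusted p = 0.0513 and 0.0341) and -1.89 and -2.10 in DESeq2 (adjusted p = 0.0398 and 0.015), which compare means of counts. Leaving out each library gave -3.16 to -1.95 for Calca and -3.29 to -2.11 for Cd55 at 50 M, -3.16 to -1.96 and -3.22 to -2.13 at 25 M, and -3.10 to -1.90 and -3.05 to -2.03 at 17 M. The highest adjusted p over the alternatives at 50 M was 0.0661 for Calca and 0.0524 for Cd55, both without SNT replicate 3. With the runs summed the log2 FC was -2.37 and -2.50. The number of genes called at 50 M, 10497, ranged from 8416 to 11346 when a library was left out.

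The difference between the decreases of Calca and Cd55 changed sign at 17 M when a library was left out, over a range from -0.0816 to 0.178, and at 25 M and 50 M it stayed positive, from 0.0299 to 0.229 and from 0.062 to 0.253.

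Replicate numbers are shared by the groups, and the libraries were treated as unpaired. The deviations of same-numbered libraries from their group means correlated at 0.0449, -0.304 and 0.145 over genes at 50 M. Those of libraries with unlike numbers ranged from -0.344 to 0.323. Deviations within a group of 3 depend on each other, so these values cannot decide whether the numbers pair the libraries. With the replicate block the log2 FC at 50 M stayed at -2.37 for Calca (adjusted p = 0.0262) and -2.52 for Cd55 (adjusted p = 0.0223), and 9459 genes were called.

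Of the listed genes, 5 that were not called changed sign. With equal totals the log2 FC at 50 M was 0.14 for Kif5c, 0.11 for Ptger3, 0.063 for Masp1, 0.14 for Pigv and 0.067 for Mal, each negative with size factors. Kif5c was also positive in edgeR (0.017) and DESeq2 (0.000409), without naive replicate 2 (0.033) and without SNT replicate 2 (0.17), with a lowest value of -0.15 without SNT replicate 1. Ptger3 was positive without naive replicate 2 (0.027) and without SNT replicate 2 (0.067, lowest -0.14), and Pigv without SNT replicate 2 (0.0086, lowest -0.066). Mal was positive without naive replicate 3 (0.098, lowest -0.36). The cause was not tested. Depth did not limit the members, whose lowest count was 189 reads, for Cd55 in SNT replicate 2 at 17 M.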

Other observations

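Among markers of tissue that could be dissected along with the ganglion, 2 of 6 skeletal muscle genes could be matched. Both were called lower in SNT at 50 M, where 29.4% of all genes were called lower and 29.2% higher. Mybph, a myosin-binding protein, had a log2 FC of -2.07 (limma adjusted p = 0.00817), and Pgam2, the muscle phosphoglycerate mutase, had one of -0.38 (limma adjusted p = 0.0575). The call of Pgam2 was lost in 6 of 16 alternatives, among them equal totals (adjusted p = 0.216), and it was not made at 25 M (adjusted p = 0.129) or 17 M (adjusted p = 0.425). The summed normalized count of both was 535 to 673 in naive libraries, 350 in SNT replicate 1, 189 in replicate 2 and 255 in replicate 3. The order of the SNT libraries in this sum was that of Calca and Cd55, and any part of it in their levels was not tested. The 1 matched T or NK cell marker of 6, Il12rb2, had a log2 FC of 0.45 at 50 M (limma adjusted p = 0.0722), with 45.1 to 57.3 normalized counts in naive libraries and 65.2 to 75.5 in SNT libraries. Its call was lost in 7 of 16 alternatives, among them DESeq2 (adjusted p = 0.11) and the fit without SNT replicate 1 (adjusted p = 0.143), and it was not made at 25 M (adjusted p = 0.147) or 17 M (adjusted p = 0.164). None of the 4 red blood cell markers could be matched.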
